A study of Homo sapiens with 6 samples.

Results

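The 10 genes described here encode S100 calcium-binding proteins: S100A2, S100A4, S100A6, S100A7, S100A8, S100A9, S100A10, S100A11, S100A14 and S100P. They were chosen by name, with earlier results of these data known, and all 10 of 10 were found among the 16418 genes of the expression table. Their levels were read in 6 established human breast cancer cell lines, UACC-812, MDA-MB-415, SKBR3, MDA-MB-453, T47D and CAL51, each sequenced once from total RNA. Each line is its own group with 1 library and no replicate, so differences between lines carry no measure of biological error and no test was made.

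All 6 lines are labelled epithelial and derived from breast. UACC-812 is labelled as a ductal carcinoma of the breast, T47D as a ductal carcinoma, MDA-MB-415 and SKBR3 as adenocarcinomas and CAL51 as a breast carcinoma, with T47D, MDA-MB-415, SKBR3 and CAL51 labelled as taken from pleural effusion. MDA-MB-453 is labelled as a metastatic carcinoma from pericardial effusion. Each line had its own medium. UACC-812 grew in Leibovitz's L-15 with 2 mM glutamine, 20% fetal bovine serum and 20 ng/ml EGF, and MDA-MB-415 in the same base medium with glutamine, 15% serum, insulin at 10 mcg/ml and as much glutathione by weight. SKBR3 was kept in RPMI 1640 with 20% serum and MDA-MB-453 in IMEM with 20%, while T47D and CAL51 had RPMI 1640 with 10%. Line and culture condition cannot be told apart.

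S100 proteins are small proteins of vertebrates that bind calcium through a pair of EF-hand motifs. Most work as dimers: on binding calcium they open a surface that grips other proteins, and inside the cell they act on the cytoskeleton, on membranes and on annexins. Several are also released and bind receptors on other cells. Most of the genes lie in 1 cluster on chromosome 1, within the epidermal differentiation complex, a stretch that also holds genes of the skin barrier. Of the genes described here 9 are on chromosome 1 and S100P is on chromosome 4. In breast tissue S100A7, also called psoriasin, is known from ductal carcinoma in situ, S100A4 from studies of metastasis, and S100A8 with S100A9 from inflammation.

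Start-site sequences are shown for S100A7, its close relative S100A7A, S100A8 and S100A9, because S100A7, S100A8 and S100A9 had the widest ranges of the 10 genes over the lines and S100A7A is a near-copy. Each is the RefSeq sequence of build GRCh38.p14 from 250 bases before to 50 bases after the gene's start, read 5′ to 3′ in the direction of the gene. The windows are chr1:153460602-153460901 (minus strand) for S100A7, chr1:153416270-153416569 (plus strand) for S100A7A, chr1:153391139-153391438 (minus strand) for S100A8 and chr1:153357604-153357903 (plus strand) for S100A9. RefSeq gives S100A8 3 such windows, and the one at the GENCODE start is shown. Capitals mark letters searched for: TATAAA, the core of a TATA box, TTNNGNAA on either strand, letters known from sites of C/EBP factors, and GGGCGG on either strand, letters known from SP1 and KLF sites.
S100A7: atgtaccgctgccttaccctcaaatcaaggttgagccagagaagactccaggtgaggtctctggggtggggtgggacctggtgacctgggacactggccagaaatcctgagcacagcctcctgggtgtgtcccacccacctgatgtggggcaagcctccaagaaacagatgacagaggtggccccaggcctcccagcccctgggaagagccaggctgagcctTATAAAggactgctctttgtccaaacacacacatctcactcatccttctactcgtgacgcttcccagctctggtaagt
S100A7A: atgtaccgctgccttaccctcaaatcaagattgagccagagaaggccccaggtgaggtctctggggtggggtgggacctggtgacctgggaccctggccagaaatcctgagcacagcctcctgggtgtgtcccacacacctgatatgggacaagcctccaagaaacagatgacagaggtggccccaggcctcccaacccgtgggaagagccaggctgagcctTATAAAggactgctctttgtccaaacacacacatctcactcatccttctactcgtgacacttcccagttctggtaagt
S100A8: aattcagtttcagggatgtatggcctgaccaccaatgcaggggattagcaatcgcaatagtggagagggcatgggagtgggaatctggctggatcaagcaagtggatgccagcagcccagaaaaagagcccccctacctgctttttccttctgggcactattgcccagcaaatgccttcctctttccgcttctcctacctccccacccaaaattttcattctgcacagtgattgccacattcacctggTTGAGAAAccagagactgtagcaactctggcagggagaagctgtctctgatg
S100A9: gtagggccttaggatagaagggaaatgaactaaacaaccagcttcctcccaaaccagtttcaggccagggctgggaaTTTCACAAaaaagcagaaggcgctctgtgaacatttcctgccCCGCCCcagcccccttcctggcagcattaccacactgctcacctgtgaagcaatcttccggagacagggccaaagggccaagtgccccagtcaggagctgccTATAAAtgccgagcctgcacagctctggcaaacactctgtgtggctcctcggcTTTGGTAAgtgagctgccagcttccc
The S100A7 and S100A7A windows were identical at 289 of 300 positions, or 96.3%, and TATAAA began 28 bases before the start in both. In S100A9 it began 29 bases before the start, and the window of S100A8 did not hold these letters. TATAAA was found on the gene's own strand in 4 of the 10 genes (S100A4, S100A7, S100A9 and S100P), against 7.33% of 35116 windows of the same length over 27305 genes. TTNNGNAA was found in S100A6, S100A8, S100A9, S100A11 and S100P, 5 of 10, against 36.8% of all windows. A match describes letters and no binding site.

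Most of the 10 genes differed far more between the lines than genes did at large. The deposited values are reads per kilobase of exon scaled to library size (RPKM), apparently summed over the exons of a gene, so the level of 1 gene can be compared between lines but levels of different genes cannot. The range of a gene is its highest minus its lowest log2(value + 1) over the 6 lines. It reached 4 log2 units, or 16-fold, in 8 of the 10 genes against 21.9% of all genes, and its median was 8.07 against 2.37 over all genes. S100A10 passed narrowly, at 4.03, and the count was 7 after each of 3 scalings of the libraries and at a pseudocount of 5, and 9 at a pseudocount of 0.1. The genes were chosen with earlier results of these data known, so this excess is a description of them and not of the family. Among 9 other S100 genes, 3 reached 4 log2 units and the median range was 2.88. S100A7 had the widest range at 10.89 log2 units, which exceeded that of 99.7% of all genes. Its lowest value is an exact 0, so this range depends on the pseudocount: it was 14.22 at a pseudocount of 0.1 and 8.575 at 5, where S100A9 was widest at 8.988. S100A11 had the narrowest at 2.31, near the middle of all genes.

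**Figure D1:**
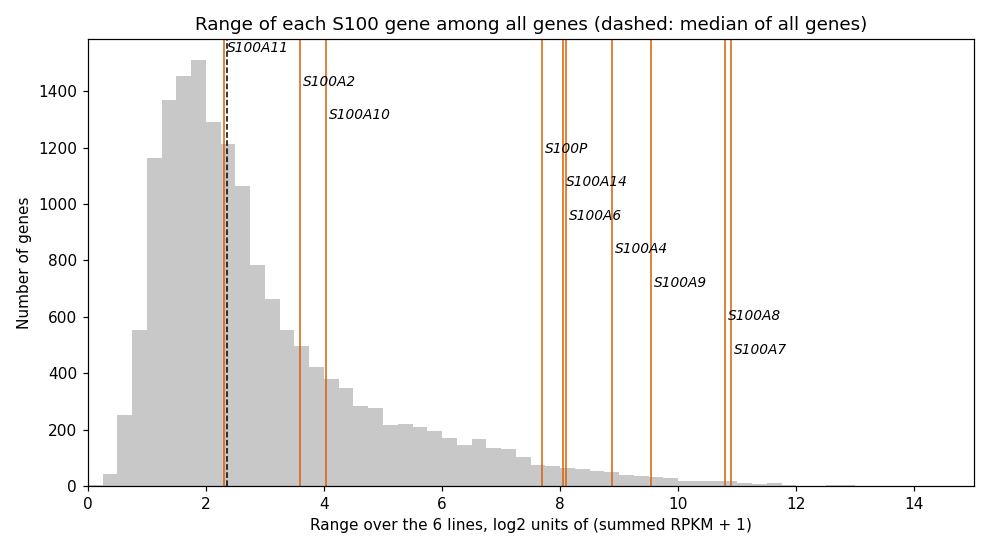
Range over the 6 lines, in log2 units of (summed RPKM + 1), of all genes as a grey histogram, with an orange line for each S100 gene and a dashed line at the median of all genes. S100A11 lies at 2.31, beside the median of 2.37, while 7 genes lie between 7.69 and 10.89.

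Each library held 25600000 to 36500000 reads, as recovered from the steps of low values, and 3 reads in an exon of 150 bp were worth 0.548 to 0.781. Levels and differences near that floor were not detectable. A gene was taken as apart in a line when it lay at least 2 log2 units, or 4-fold, beyond every other line. The log2(value + 1) scale was used. In MDA-MB-415, 3 stood above every other line (3.69% of all genes did) and 0 below (0.78% of all genes). In MDA-MB-453, 2 stood below (0.956%) and 0 above (0.408%). No member was apart in the remaining lines, where the shares of all genes above and below were 1.8% and 0.189% in UACC-812, 0.53% and 1.94% in SKBR3, 0.834% and 0.347% in T47D, and 4.01% and 1.97% in CAL51. Beside such shares, a count of 0 of 10 is no result about these genes.

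**Figure D2:**
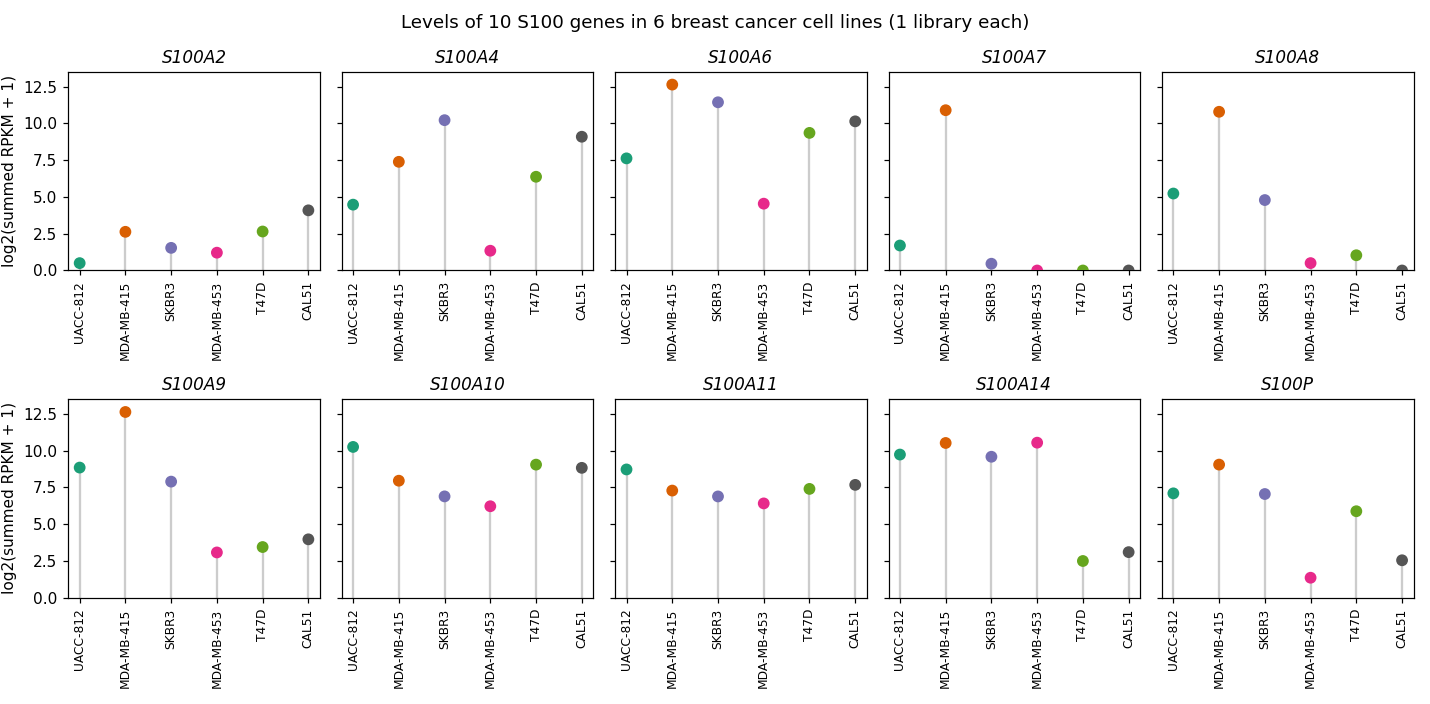
Level of each of the 10 S100 genes, as log2(summed RPKM + 1), in the 6 cell lines, with 1 point for the single library of each line. S100A7, S100A8 and S100A9 stand highest in MDA-MB-415, S100A4 and S100A6 lowest in MDA-MB-453, and S100A14 is low in T47D and CAL51.

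The secreted, inflammation-linked genes were highest in MDA-MB-415. S100A7 encodes psoriasin, an antimicrobial protein of keratinocytes. Its summed RPKM was 1902 in MDA-MB-415, 2.25 in UACC-812 and 0.375 in SKBR3, and it was listed at 0 in MDA-MB-453, T47D and CAL51. MDA-MB-415 lay 847-fold above UACC-812, the next line, and the SKBR3 value was under the floor of that library. Each library is the RNA of a whole culture, so fewer cells with the transcript and less RNA per cell cannot be told apart.

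S100A8 and S100A9 encode the partners of calprotectin, a heterodimer that binds zinc and manganese and is best known from neutrophils and inflamed skin. S100A8 stood at 1766 in MDA-MB-415, 36.5 in UACC-812, 26.6 in SKBR3, 1.05 in T47D and 0.417 in MDA-MB-453, and was listed at 0 in CAL51. S100A9 stood at 6318 in MDA-MB-415, 460 in UACC-812, 237 in SKBR3, 14.7 in CAL51, 9.90 in T47D and 7.45 in MDA-MB-453. Both genes placed the lines in the same 3 tiers, with MDA-MB-415 on top, UACC-812 and SKBR3 between and the other 3 lines low. For S100A8 the step from MDA-MB-415 to UACC-812 was 48.3-fold, and that from SKBR3 to T47D 25.4-fold. For S100A9 the corresponding steps were 13.7-fold, to UACC-812, and 16.1-fold, from SKBR3 to CAL51. Within the lowest tier the S100A9 values lay within 2-fold of each other, and no order is read from them.

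S100P, a protein of placenta and of many carcinomas that binds ezrin and the receptor RAGE, followed a similar order. Its level was 529 in MDA-MB-415, 136 in UACC-812, 131 in SKBR3, 57.9 in T47D, 4.84 in CAL51 and 1.57 in MDA-MB-453. MDA-MB-415 lay 3.89-fold above the next line, so S100P was not apart there. UACC-812 and SKBR3 were level at 1.03-fold, and the widest step was the 11.95-fold drop from T47D to CAL51. MDA-MB-415 was the highest line for 5 of the 10 genes (S100A6, S100A7, S100A8, S100A9 and S100P), against 16.5% of all genes.

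S100A4 and S100A6, which act on the cytoskeleton, were low in MDA-MB-453. S100A4, also called metastasin, binds non-muscle myosin. It stood at 1189 in SKBR3, 544 in CAL51, 166 in MDA-MB-415, 81.7 in T47D, then 21.2 in UACC-812 and 1.54 in MDA-MB-453. The lines form a graded series with steps of 2.03-fold to 3.85-fold, and then a 13.8-fold drop to MDA-MB-453. The highest value was 774 times the lowest.

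S100A6, or calcyclin, binds annexins and the calcyclin-binding protein. It stood at 6358 in MDA-MB-415, 2765 in SKBR3, 1125 in CAL51, 653 in T47D, then 196 in UACC-812 and 22.3 in MDA-MB-453. The last step, from UACC-812 to MDA-MB-453, was 8.78-fold. S100A4 and S100A6 ranked 5 lines alike, from SKBR3 down through CAL51, T47D and UACC-812 to MDA-MB-453. They differed on MDA-MB-415, highest for S100A6 but behind SKBR3 and CAL51 for S100A4. In MDA-MB-453 both lay more than 4-fold under the next line, by 3.13 log2 units for S100A4 and 3.08 for S100A6. MDA-MB-453 was the lowest line for 6 of the 10 genes (S100A4, S100A6, S100A9, S100A10, S100A11 and S100P), against 10.2% of all genes. For S100A9, S100A10 and S100A11 the step to the next line was only 1.33-fold, 1.60-fold and 1.39-fold, so with 1 library per line their lowest place is not settled.

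S100A10 and S100A11, whose proteins bind annexins at membranes, varied less than most of the 10 genes. S100A10, also called p11, pairs with annexin A2 and has lost the ability to bind calcium. Its level was 1217 in UACC-812, 528 in T47D, 454 in CAL51, 247 in MDA-MB-415, then 118 in SKBR3 and 73.5 in MDA-MB-453. The highest value was 16.6 times the lowest, and the step from UACC-812 to T47D was 2.30-fold. S100A11 stood at 421 in UACC-812, 203 in CAL51, 168 in T47D, 155 in MDA-MB-415, then 117 in SKBR3 and 84.1 in MDA-MB-453. Its highest value was 5.0 times the lowest, and all steps but the 2.07-fold step from UACC-812 to CAL51 were under 2-fold. UACC-812 was the highest line for these 2 of the 10 genes, against 20.9% of all genes.

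S100A2 and S100A14 showed different patterns again. S100A2, a nuclear protein of basal epithelial cells that binds p53, was low throughout. It stood at 16.01 in CAL51, 5.28 in T47D, 5.19 in MDA-MB-415, then 1.90 in SKBR3, 1.31 in MDA-MB-453 and 0.415 in UACC-812, the last under the floor of that library. CAL51 lay 3.03-fold above T47D, which was level with MDA-MB-415.

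S100A14, an epithelial member of the family, split the lines into groups of 4 and 2. It stood at 1488 in MDA-MB-453, at 1466 in MDA-MB-415, 849 in UACC-812 and 766 in SKBR3, but at 7.58 in CAL51 and 4.65 in T47D. The upper 4 lines lay within 2-fold of each other. The step from SKBR3 to CAL51 was 101-fold. Because T47D and CAL51 were both low, neither was apart from every other line. S100A14 was the only one of the 10 genes for which MDA-MB-453 was highest, and its lead over MDA-MB-415 was 1.01-fold.

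Lines were then compared by deviation, the log2(value + 1) of a gene less the median over the other 5 lines. The median over the 10 genes was +2.13 in MDA-MB-415, where the median of all genes was -0.01. It was +1.33 in UACC-812 (all genes +0.19) and +0.81 in SKBR3 (all genes -0.46). It was -3.45 in MDA-MB-453 (all genes 0), -0.90 in T47D (all genes +0.09) and -0.04 in CAL51 (all genes +0.23). The 5th and 95th percentiles of all genes in a line, each with 5% of all genes beyond it, served as a background. In MDA-MB-415, 4 of the 10 genes lay above the 95th percentile and 0 below the 5th. In MDA-MB-453 the counts were 0 above and 6 below, and in T47D 0 above and 3 below.

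The medians of CAL51, UACC-812 and SKBR3 hid genes on both sides of 0. In CAL51, 0 genes lay above the 95th percentile of all genes and 4 below the 5th. S100A4 stood at +2.72 and S100A2 at +2.55, but S100A14 at -6.63, S100P at -4.50 and S100A9 at -3.92. In UACC-812, 2 lay above and 3 below, with S100A9 at +4.88 and S100A8 at +4.19 but S100A4 at -2.91 and S100A6 at -2.52. In SKBR3, 4 lay above and 0 below, with S100A9 at +3.92 and S100A4 at +3.85 but S100A10 at -1.94. The whole SKBR3 library lay low: scaling the libraries by trimmed means of M values moved its median of all genes from -0.46 to 0 and the median of the 10 genes from +0.81 to +1.29.

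**Figure D3:**
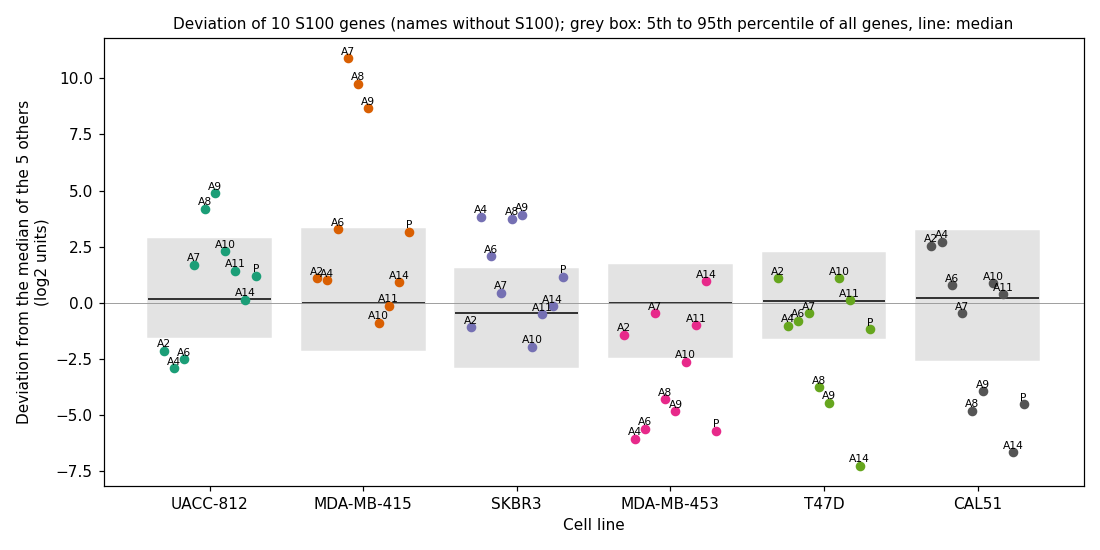
Deviation of each of the 10 S100 genes from the median of the other 5 lines, in log2 units, by line, with the 5th to 95th percentile of all genes as a grey box and their median as a black line. In MDA-MB-453, 6 of the 10 genes lie under the box and 0 above it, while in MDA-MB-415, 4 lie above it and 0 below.

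Pairs of lines were then compared over the 10 genes. T47D and CAL51 shared the most, with 6 of the 10 genes within 2-fold. That is near the 55.5% of all genes, so the count is no result about these genes. It includes S100A7, listed at 0 in both lines. UACC-812 had 0 of the 10 genes within 2-fold of T47D, although 63.1% of all genes were, and 0 within 2-fold of CAL51, against 51.5%. MDA-MB-415 and MDA-MB-453 stood furthest apart by the median absolute difference, which was 6.87 log2 units against 0.87 over all genes. In that pair 2 of the 10 genes were within 2-fold (S100A11 and S100A14), against 54.8% of all genes. The other 8 were more than 2-fold higher in MDA-MB-415 and 0 were as much higher in MDA-MB-453. The share of all genes on each side was not counted, so nothing is read from that direction.

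Likeness between genes was read as Pearson's r over the 6 lines on the log2(value + 1) scale. All pairs share the same 6 libraries, so r describes only these lines. Of 45 pairs, 2 reached an r of 0.9 and 9 were below 0, with a median of 0.28. S100A8 and S100A9, whose proteins form calprotectin, had the highest, with r = 0.98 and rho = 0.83. Without MDA-MB-415 r was 0.97. S100A10 and S100A11 had r = 0.95 and rho = 0.94, and without MDA-MB-415 r was 0.95. S100A4 and S100A6 had r = 0.88 and rho = 0.83, and r rose to 0.98 without MDA-MB-415, the line on which their ranks differed. The lowest r was -0.71, for S100A2 and S100A14.

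**Figure D4:**
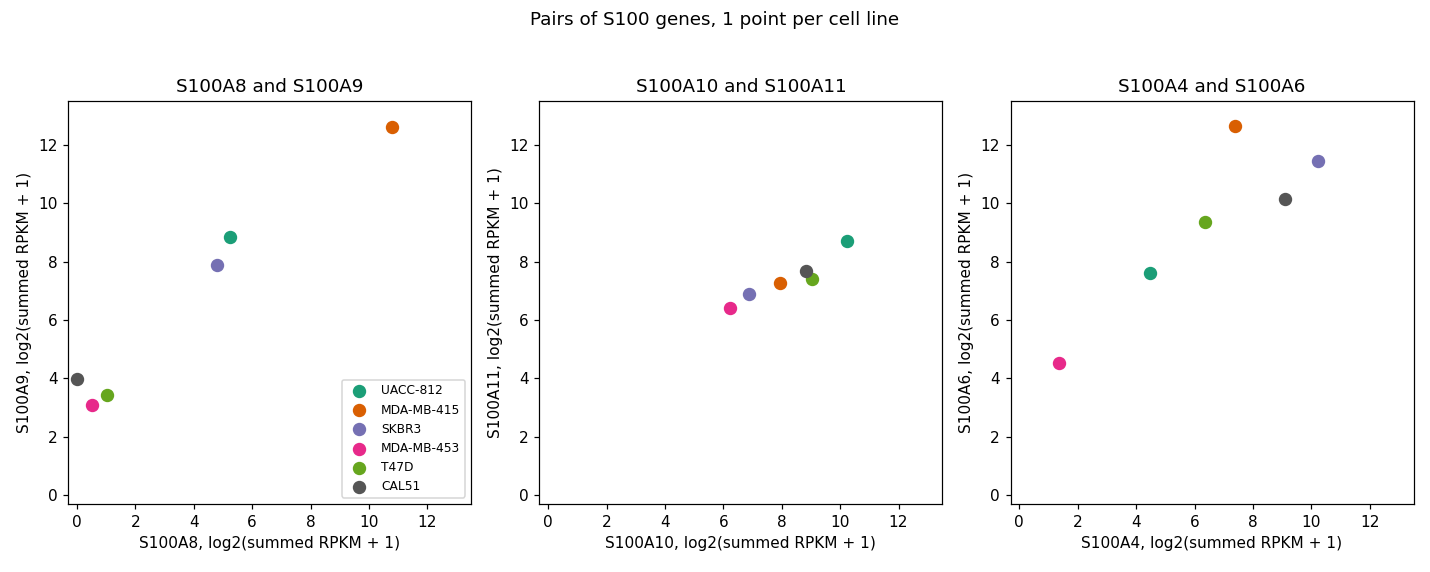
Levels, as log2(summed RPKM + 1), of S100A8 and S100A9, of S100A10 and S100A11 and of S100A4 and S100A6, with 1 point per cell line. The points of the first pair fall into 3 tiers, those of the second lie along a narrow line, and in the third MDA-MB-415 lies above the line of the other 5.

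The order of the genes on chromosome 1 was compared with the line in which each was highest. Of 16 measured S100 genes of that chromosome, 6 consecutive ones, from S100A9 through S100A12, S100A8, S100A7A and S100A7 to S100A6, were all highest in MDA-MB-415. Next to them S100A5, S100A3 and S100A2 were highest in CAL51 and S100A4, which lies among these, in SKBR3. For S100A5 the lead of CAL51 over MDA-MB-415 was only 1.05-fold, so with 1 library per line the end of the run is not settled. Of the 63 protein-coding genes that RefSeq places from S100A10 to S100A1, 28 were in the table, and MDA-MB-415 was the highest line for 18 of them, or 64.3%, against 16.5% of all genes. The table holds only genes that reach 1 in some line, and 11 of the 28 were under 1 in all lines but MDA-MB-415, so they had to be highest there. S100A7A, in the run of 6, is 1 of these 11. Among the other 17, MDA-MB-415 was the highest line for 7, or 41.2%. The bounds of this stretch were set by the S100 genes themselves, and the other genes in it are mostly of the skin barrier.

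**Figure D5:**
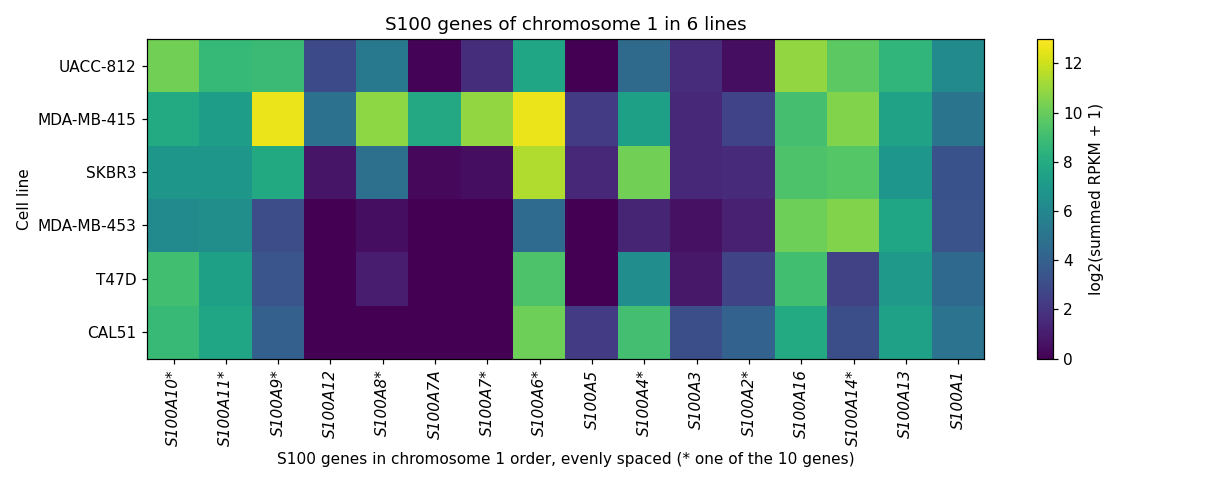
Level, as log2(summed RPKM + 1), of the 16 measured S100 genes of chromosome 1 in the 6 lines, in their order along the chromosome and evenly spaced, with an asterisk on the genes described here. MDA-MB-415 is the highest line for the 6 consecutive genes from S100A9 to S100A6, of which S100A7A is in the table only through that line.

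Of 11 other S100 genes, 9 were in the table and 2 (S100B and S100A7L2) were not analysed here. A range of 4 log2 units was reached by 3 of the 9, or 33.3%, against 21.9% of all genes. S100A7A, the near-copy of S100A7, stood at 228.8 in MDA-MB-415 and reached no more than 0.202 elsewhere. The S100A7 and S100A7A transcripts were 84.0% identical over 462 aligned bases, with identical runs of up to 81 bases, and reads may have been shared between them, so the level of each is uncertain. In RefSeq the span of S100A8 also overlaps that of S100A7A, and S100A4 overlaps S100A5. Whether reads were counted by strand was not stated, so reads from overlapping genes may have been shared as well. S100A12, which like S100A8 and S100A9 is a neutrophil protein, stood at 28.04 in MDA-MB-415, 6.65 in UACC-812 and 0.677 in SKBR3, and was listed at 0 in the other 3 lines. It gave the lines the same order as S100A7.

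The other relatives did not share that order. S100A16, the neighbour of S100A14, stood between 250 in CAL51 and 1878 in UACC-812, so the split of S100A14 was not seen in it, and the 2 genes had r = 0.67. S100G, the vitamin D-dependent calbindin, was highest in T47D at 372 and lowest in SKBR3 at 12.5, below every other line by 2.63 log2 units. S100A13 stood between 112 and 372 and S100A1 between 8.69 and 70.4, both highest in UACC-812. S100A3 reached 7.83 and S100A5 4.04, both in CAL51. S100Z was listed at 0 in 5 lines and stood at 3.69 in CAL51.

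Genes of binding partners and receptors were read next. Of 18 listed, 17 were in the table, TLR4 being not analysed here, and 6 had a range of 4 log2 units, or 35.3% against 21.9% of all genes. In MDA-MB-415, 2 of the 17 stood apart above (CD36 and PLAT), where 3.69% of all genes did. In CAL51, 1 stood above (FABP5), near the 4.01% of all genes. Below stood 1 in SKBR3 (ANXA2, all genes 1.94%) and 1 in MDA-MB-453 (ANXA11, all genes 0.956%). CD36, a fatty acid receptor that also binds the complex of S100A8 and S100A9, stood at 1680 in MDA-MB-415 and at 0.227 to 53.1 elsewhere. FABP5, the epidermal fatty acid-binding protein and a partner of S100A7, stood at 281 in CAL51, 68.6 in MDA-MB-415 and 4.25 or less elsewhere. PLAT, which encodes tissue plasminogen activator, stood at 57.4 in MDA-MB-415 and 4.34 in CAL51 and was listed at 0 in the other 4 lines.

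The annexin genes ANXA1 and ANXA2 ordered the lines differently from their S100 partners. ANXA11 was lowest in MDA-MB-453, by 3.08 log2 units. ANXA1, whose protein binds S100A11, stood at 3520 in CAL51 and 2922 in MDA-MB-415 and at 32.2 to 228 elsewhere. ANXA2, the partner of S100A10, stood at 1335 in SKBR3 and at 12121 to 22310 in the other lines, with r = 0.45 and rho = 0.20 against S100A10. AGER, which encodes RAGE, the receptor of several S100 proteins, ranged from 5.02 in UACC-812 to 57.3 in MDA-MB-453.

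Of 28 listed regulators known to act on S100 genes or in keratinocytes, 27 were in the table, IL22RA1 being not analysed here. MDA-MB-415 was the highest line for 13 of the 27, against 16.5% of all genes, and their median deviation there was +1.53. Of the 27, 1 (IL1B) was under 1 in every other line and had to be highest there, and among the other 26 MDA-MB-415 was highest for 12. The list was chosen with earlier results of these data known, so these counts are a description. In MDA-MB-415, 3 stood apart above (CEBPB, KLF4 and TNF), where 3.69% of all genes did, and in CAL51 1 (KLF5), where 4.01% did. Apart below were 1 in SKBR3 (OSMR, all genes 1.94%), 1 in MDA-MB-453 (TNF, all genes 0.956%), 2 in T47D (KLF5 and FOS, all genes 0.347%) and 1 in CAL51 (GRHL2, all genes 1.97%). TNF, the inflammatory cytokine, stood at 152 in MDA-MB-415 against 32.3 or less elsewhere, and was listed at 0 in MDA-MB-453. GRHL2, an epithelial transcription factor, stood at 0.536 in CAL51, under the floor of that library, and at 87.1 to 874 elsewhere. KLF5 stood at 299 in CAL51, 1.30 in T47D and 10.5 to 69.6 in the others, and OSMR, the oncostatin M receptor, at 0.437 in SKBR3 and 18.3 to 182 elsewhere.

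Markers of myeloid cells were read beside S100A8, S100A9 and S100A12, because these genes are best known from neutrophils and monocytes. Of 15 markers 12 were in the table. Their median deviation was +2.81 in CAL51, +0.53 in MDA-MB-453, 0 in T47D, -0.41 in MDA-MB-415, -0.73 in SKBR3 and -1.02 in UACC-812. The medians of all genes lay between -0.46 and +0.23. In MDA-MB-415 SPI1, TYROBP and ELANE were listed at 0 and MPO and PTPRC were under the floor at 0.0329 and 0.489, while CD14 stood at 176 and ITGAM at 150, the highest of the 6 lines. In CAL51, where S100A8 was listed at 0, CSF3R stood at 129 and MPO at 205. The part of such cells in the S100 levels was not tested. Of the epithelial markers all 6 were in the table. EPCAM lay between 1329 and 3156 in the 6 lines, KRT8 between 3962 and 55731 and KRT19 between 1098 and 17305. CDH1, the E-cadherin gene, was 0.823 in SKBR3 and 107 to 3978 elsewhere, and CLDN4 was 2.64 in CAL51 and 49.5 to 231 elsewhere.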

How the data were processed

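RNA of 6 cell lines was extracted with Tri reagent, DNase-treated and made into libraries with a PrepX mRNA kit, per the labels' protocols. The submitters' processing notes name CASAVA 1.8, RSEM and the build hg19, with no role. For aligner settings and annotation: not given in the sources used here.

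The deposited values were read as RPKM summed over exons by the authors, a unit inferred from the values: in each library, 1 constant turned low values of genes with 1 exon into whole reads for 31.6% to 42.0% of those genes (tolerance 0.01 reads), against medians of 1.28% to 1.45% for other constants. Such a sum grows with exon number. The constant gave a depth of 36500000 reads for CAL51, 33900000 for MDA-MB-453, 33700000 for SKBR3, 30200000 for MDA-MB-415, 29200000 for T47D and 25600000 for UACC-812. Floors and depths cover counting error only. Of 16444 genes, 22 with names turned into dates and 4 entries sharing 2 names were left out. Other deposited sheets were not used. The table holds only genes reaching 1 in some line. An exact 0 may be a failed estimate, so no linear fold is given against it, and ranges, deviations and gaps on the log2 scale that involve a 0 depend on the pseudocount.

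Values were compared as log2(value + 1), which understates changes of low genes, with Python 3.11.15, numpy 2.4.6, pandas 2.3.3 and scipy 1.17.1. Scripts were tested on simulated data. The other settings were pseudocounts of 0.1 and 5, trimmed-mean, upper-quartile and median-of-ratios scaling, a minimum value of 5, each line left out of the reference, and the mean of the other lines as reference. With 1 library per line no test was made. From each companion list (other S100 genes, fused S100 genes, partners and receptors, regulators, cornified envelope, skin defence) the text names all other S100 genes, or up to 4 genes of widest range among those reaching 5, and for each S100 gene the 3 genes of highest r. By this rule 1 gene is not reported here. The cell markers, genes that make up small counts apart, and AGER, chosen after its values were seen, were named in addition. The members and lists were chosen with earlier results of these data known. The reference is GRCh38.p14, so sequences carry its coordinates and the genes' order was taken from it.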

Additional observations from a re-analysis of the deposited data

How the results depend on the processing

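Each result was recomputed with other pseudocounts, scalings, filters and references. S100A7, S100A8 and S100A9 stood apart above in MDA-MB-415, and S100A4 and S100A6 apart below in MDA-MB-453, under every setting that kept the line, although S100A4 fell to 2.00 log2 units at a pseudocount of 5. Counts of genes apart do not use the mean or median of other lines, and all 10 genes reach 5. Those with the mean as reference or a minimum value of 5 thus could not change. With these included, 138 of 144 recomputed counts of genes apart were within 1.5 times the main count. The exceptions were 1 gene below in CAL51 at a pseudocount of 0.1 (S100A8), without MDA-MB-453 (S100P) and without T47D (S100A14), 1 above in SKBR3 after scaling by trimmed means or without CAL51 (S100A4 both times), and 1 below in T47D without CAL51 (S100A14). S100A6 was also apart above in MDA-MB-415 without SKBR3, by 2.50 log2 units, and S100P below in MDA-MB-453 without CAL51, by 4.52. Leaving out a reference line leaves fewer lines to pass, so counts can only stay or rise.

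The median of the 10 genes kept its value within 1.5-fold in 53 of 72 recomputed values and moved further in the other 19, and the cause was not tested. The 53 include the medians with a minimum value of 5, which could not change because all 10 genes reach it. In SKBR3 (+0.81) it was 1.63 at a pseudocount of 0.1, 2.23 without UACC-812, 2.89 without MDA-MB-415 and 0.090 without CAL51. In MDA-MB-415 (+2.13) it was 3.72 against the mean of the others, 3.53 without UACC-812, 4.13 without SKBR3 and 2.74 without MDA-MB-453. In MDA-MB-453 (-3.45) it was -2.55 at a pseudocount of 5, -2.29 without UACC-812, -2.56 without MDA-MB-415 and -2.67 without SKBR3. In CAL51 (-0.04) it was -0.93 at a pseudocount of 0.1, -1.14 against the mean and -0.67 without MDA-MB-453. In T47D (-0.90) it was -0.065 against the mean, -0.056 without MDA-MB-415 and 0.18 without SKBR3, so its sign is not settled. In UACC-812 (+1.33) it was 2.04 without MDA-MB-415. Across scalings r of S100A10 and S100A11 fell as low as 0.88, from 0.95. The median deviations of the companion lists were within 1.5-fold in 334 of 360 recomputed values. Those of the partners and receptors could not change with a minimum value of 5, which all 17 reach. In MDA-MB-415 that of the cornified envelope genes (+4.13) was 6.98 at a pseudocount of 0.1 and 2.11 at 5, and that of the skin defence genes (+4.60) was 6.90 at 0.1 and 6.07 with genes reaching 5. The ranges of the 10 genes were within 1.5-fold in 38 of 50, and 11 of the 12 that moved did so with the pseudocount.

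No paired analysis was possible because each line has 1 library. Depth limits values under 0.548 to 0.781, among them S100A2 in UACC-812 and S100A8 in MDA-MB-453, and the absence of replicates limits every comparison.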

Other observations

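Genes of the skin barrier and of skin defence were read beside the S100 genes. Of 24 listed cornified envelope genes of the epidermal differentiation complex, 12 were in the table. All 12 were highest in MDA-MB-415, where 16.5% of all genes were, and 9 stood apart there, as 3.69% of all genes did. However, 10 of the 12 were under 1 in every other line and are in the table only through MDA-MB-415, so these counts are a description and nothing is read from them. SPRR2A, which encodes a small proline-rich protein of the envelope, stood at 57.9 in MDA-MB-415 and at 0.123 in UACC-812, and was listed at 0 in the other 4 lines. SPRR2E stood at 33.2 and SPRR3 at 35.2 in MDA-MB-415, against at most 0.0614 and 8.004 elsewhere. PGLYRP4, a peptidoglycan recognition protein of skin, stood at 41.9 against at most 0.416. All 12 of these genes lie in the stretch of chromosome 1 counted in the report, so the counts are not independent. The 7 listed genes of fused S100 proteins, such as filaggrin, were not analysed here.

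Of 16 listed skin defence genes, 14 were in the table. All 14 were highest in MDA-MB-415, and 9 stood apart there, beside the same shares of all genes. Of the 14, 4 were under 1 in every other line and had to be highest in MDA-MB-415. Among these were PI3 and SERPINB4, which the 9 apart include. The other 10 reached 1 in a further line, and all 10 were highest in MDA-MB-415. The list was chosen with earlier results of these data known, so these counts are a description and nothing is read from them. In CAL51 1 gene (KRT16) stood apart below, where 1.97% of all genes did. LCN2, an iron-withholding protein of neutrophils and epithelia, stood at 3700 in MDA-MB-415 against at most 7.65 elsewhere. KRT6A, a keratin of activated keratinocytes, stood at 1084 against at most 19.0, and KRT16, its partner, at 725 against at most 115. IL8, a neutrophil-attracting chemokine, stood at 828 against at most 3.58.

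For each S100 gene, the genes of most similar pattern over the 6 lines were taken from 6842 genes with a mean of at least 3 and a range of at least 2 on the log2 scale. Between 4 and 36 of them reached an r of 0.95 with a given S100 gene, and r describes these 6 libraries alone. S100A7 was closest to CFB, a complement factor gene (r = 0.992), which stood at 66.7 in UACC-812, 41916 in MDA-MB-415 and 6.09 to 10.4 elsewhere. SPAG17 (0.991) and GBP1, an interferon-induced GTPase (0.990), came next. Because S100A7 lay 9.2 log2 units higher in MDA-MB-415 than in any other line, these r values rest largely on that line. They were not computed without it. S100A8 was closest to CEACAM6, an adhesion molecule gene (0.992), which stood at 1997.1 in MDA-MB-415, 40.1 in UACC-812 and 11.2 in SKBR3, followed by KIAA0319 (0.988) and TGFBI (0.986). S100A9 was closest to S100A8 (0.983), followed by TGFBI (0.976) and AIFM2 (0.975).

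S100P was closest to PADI2, a peptidylarginine deiminase gene (0.989), which stood at 2260.4 in MDA-MB-415, 600 in UACC-812 and 3.33 in MDA-MB-453, followed by MTUS1 (0.987) and SLC36A1 (0.969). S100A4 was closest to KRT10 (0.994), CD58 (0.975) and PLTP (0.974), of which PLTP, a phospholipid transfer protein gene, stood at 393 in SKBR3, 225 in CAL51 and 2.19 in MDA-MB-453. S100A6 was closest to BAIAP2L1 (0.987), EPB41L4B (0.973) and TRIM38 (0.968), the last at 300 in MDA-MB-415 but 0.715 in MDA-MB-453. S100A2 was closest to STK24 (0.998), RIPK4 (0.975) and GPX8 (0.972).

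S100A10 was closest to NFATC1 (0.997), which stood at 66.7 in UACC-812 and was listed at 0 in MDA-MB-453, followed by KIAA1161 (0.985) and PPCDC (0.984). S100A11 was closest to WDR61 (0.993), P2RX5 (0.986) and TAX1BP3 (0.984). S100A14 was closest to TSC22D3, a glucocorticoid-induced gene (0.976), at 22.3 in T47D, 48.5 in CAL51 and 151 to 255 elsewhere, then to TCEAL1 (0.975) and PIK3R3 (0.962).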
